A study of Homo sapiens and Canis lupus familiaris with 27 samples.

Results

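The genes described here encode the proteins of the cytosolic ribosome. They were chosen by name, as all table entries called RPL or RPS followed by a number and an optional final A or X, together with RPLP0, RPLP1, RPLP2 and RPSA. This gave 77 of 25300 gene names, 77 of the 23708 in each human table and 50 of the 16028 in the canine table. RNA sequencing of polyA-enriched RNA was performed in 3 prostate carcinoma cell lines, namely PC-3, a human line from a bone marrow metastasis, the human line LNCaP and the canine line CT1258. Cells of each line were exposed to 15 µM PDA-66, an indolylmaleimide known to depolymerize microtubules, for 12 h or 24 h, or to 0.15% DMSO, its solvent, for 24 h, and the 12 h samples therefore had no control of their own duration. Every group had 3 replicates except the PC-3 controls, of which replicates 2 and 3 were analysed (replicate 1 was not analysed here). The PC-3 samples P12-1 and P12-2 carry the same description in their labels and are named after their table columns. Each tumor is represented by a single cell line, and the study's methods describe the replicates as biological ones, prepared independently.

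The ribosome joins a small subunit, which reads the mRNA, to a large subunit, which links amino acids and passes the new chain through an exit tunnel. Its proteins are needed in fixed proportions, and growing cells spend much of their transcription on them. Most of their mRNAs begin with a terminal oligopyrimidine (TOP) tract, a C followed by a run of C and U, through which the kinase complex mTORC1 and the binding protein LARP1 control their translation. RPL5 and RPL11, which carry the 5S rRNA, also bind the p53 ligase MDM2, and loss of single ribosomal proteins causes Diamond-Blackfan anemia.

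Start sites are shown first because a tract at the start is frequent among these genes, though not found in all. Of the 77 human genes, 62 were matched to annotated starts in RefSeq (GRCh38.p14, a later build than that of the tables). A C at the start followed by at least 4 bases that were all C or T, read on the gene's own strand only, was present at 59.7% of the 77 starts of these genes and at 4.07% of all 35116 starts. A gene was counted as having a tract when at least 1 of its annotated starts had one, which held for 46 of the 62 genes. Each line below holds the 15 bases before the start and the 15 from it, with the tract in capitals. RPL13A (chr19:49487593-49487622, plus strand) and RPSA (chr3:39406705-39406734, plus strand) are shown because they had the largest and the smallest decrease in PC-3 after 12 h, RPL29 (chr3:51995881-51995910, minus strand) because it came next to RPL13A, and RPS27A (chr2:55232673-55232702, plus strand) because it went in opposite directions in PC-3 and CT1258. RPS27A has 3 annotated starts, of which only the 1 printed has a tract, and the other genes printed have 1 start each. RPS26 (chr12:56041903-56041932, plus strand) and RPS4X (chrX:72277234-72277263, minus strand) had no tract in this window.
RPL13A: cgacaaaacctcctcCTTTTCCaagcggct
RPSA: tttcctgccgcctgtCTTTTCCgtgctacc
RPL29: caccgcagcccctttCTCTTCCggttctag
RPS27A: tgcgcggcgttcttcCTTTTCgatccgcca
RPS26: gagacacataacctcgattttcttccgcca
RPS4X: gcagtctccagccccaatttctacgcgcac

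Total counts ranged from 14650839 to 18091755 in PC-3, from 11923105 to 14741883 in LNCaP and from 7203534 to 20976950 in CT1258, where the controls held 2.64 times the counts of the PDA-66 samples. The luminal prostate markers KLK2, KLK3, TMPRSS2, FOLH1 and ACPP were all above a counts-per-million (CPM) value of 1 in LNCaP controls, but of these only ACPP was in PC-3 controls and only KLK2 and FOLH1 in CT1258 controls. EPCAM, CDH1, KRT8 and KRT18 were all above 1 CPM in both human lines, whereas the canine table listed 1 of these 4 epithelial markers, at 0 in the controls, and so did not show the epithelial label of CT1258. Of 5 fibroblast markers the canine table listed 3, with COL1A2 and LUM above 1 CPM and summed levels of 345 to 411 CPM in the controls, 354 to 453 CPM after 12 h and 376 to 405 CPM after 24 h. LNCaP PDA-66 12 h replicate 2 and CT1258 DMSO replicate 2 stood apart from the other samples of their groups in these genes. The 2 PC-3 controls, DMSO replicates 2 and 3, differed from each other, and which of them deviated cannot be told. Results are given with and without each of these samples.

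Ribosomal protein mRNAs took up a large share of all counts in the human controls, and this share fell in every PC-3 sample exposed to PDA-66. In PC-3 it was 6.21% and 8.10% in the controls, 3.62% ± 0.048 (SD, n = 3) after 12 h and 3.79% ± 0.17 (SD, n = 3) after 24 h, with no overlap between controls and exposed samples. In LNCaP it was 7.14% ± 0.36 in the controls, 6.33% ± 0.87 after 12 h and 6.59% ± 0.19 after 24 h (SD, n = 3 each). All LNCaP 24 h samples lay below all controls, while LNCaP PDA-66 12 h replicate 2, at 7.25%, lay among the controls. The 50 canine entries took 3.07% ± 0.45, 2.13% ± 0.20 and 2.41% ± 0.11 (SD, n = 3 each), and this share rests on fewer genes than in the human tables. In such bulk samples fewer cells of a kind and less RNA per cell cannot be told apart.

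**Figure D1:**
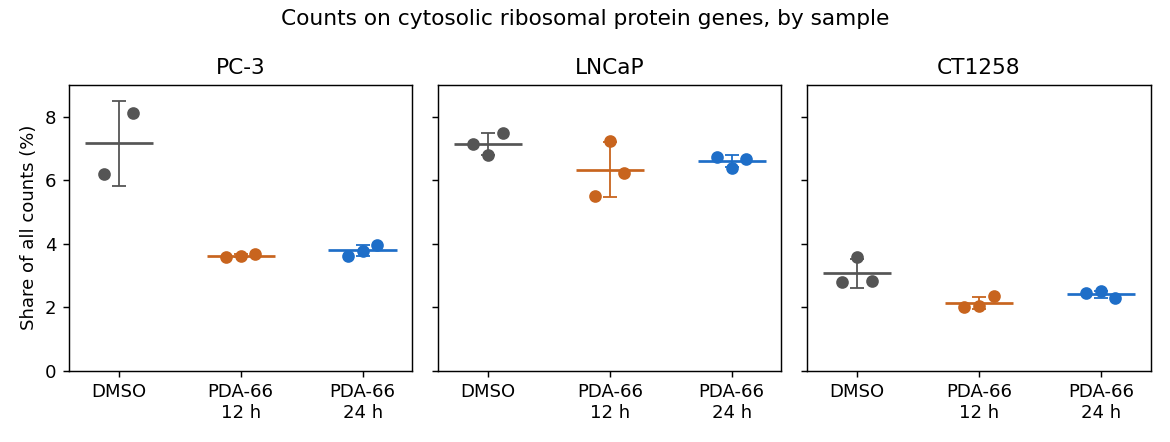
Percent of all counts that fell on ribosomal protein genes in each of the 26 samples (points), by cell line and group, with group means. The 6 PC-3 samples exposed to PDA-66 sit between 3.59% and 3.97%, below both PC-3 controls at 6.21% and 8.10%.

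In PC-3, PDA-66 was accompanied by lower levels of nearly all ribosomal protein mRNAs, with a median of 0.476 times the control after 12 h (log2 fold change -1.07) and 0.497 times after 24 h (-1.01). A gene was counted as changed when its p from the quasi-likelihood test of edgeR, adjusted by the Benjamini-Hochberg method over every tested gene of the table, was under 0.001. After 12 h, 70 of the 75 tested genes fell and 0 rose, against 14.6% of all 13777 genes that fell, 13% that rose and 27.6% that changed in either direction. After 24 h, 69 of 75 fell and 0 rose, against 10.5% of all genes that fell, 8.88% that rose and 19.3% that changed. The median log2 fold change of all genes was -0.01 at both times. In 74 of the 75 genes every exposed sample lay below both controls at each time, where this held for 35.4% of all genes after 12 h and 31.2% after 24 h. The exceptions were RPSA after 12 h and RPS10 after 24 h.

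The decrease in PC-3 ran through both subunits. For the large subunit 44 of 45 genes fell after 12 h, with a median log2 fold change of -1.08, and for the small subunit 26 of 30 fell, with a median of -1.03. Standard errors of the 75 log2 fold changes were 0.10 to 0.23. RPSA, RPL17, RPS26, RPS2 and RPS10 did not pass the threshold after 12 h, and after 24 h RPL36A was added to these 5. All 75 log2 fold changes were below 0 at both times.

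**Figure D2:**
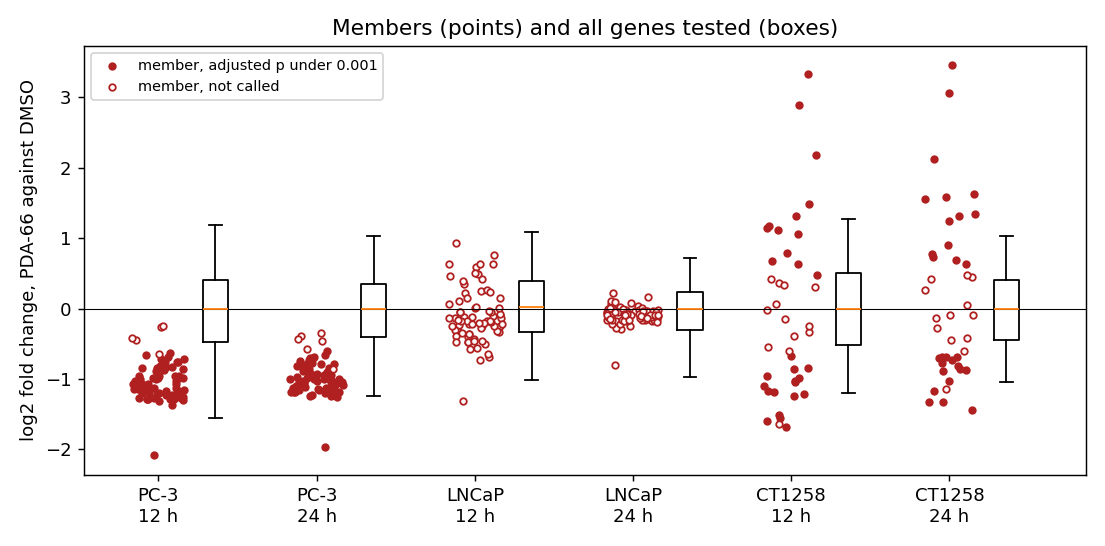
Fitted log2 fold change of each tested ribosomal protein gene (points) against DMSO after 12 h and 24 h of PDA-66 in PC-3 (75 genes), LNCaP (75 genes) and CT1258 (42 genes). PC-3 points lie between -2.08 and -0.25 after 12 h, LNCaP points lie on both sides of 0, and CT1258 points spread from -1.69 to 3.34 after 12 h and reach 3.45 after 24 h.

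RPL13A, a large subunit protein whose gene also hosts small nucleolar RNAs, showed the lowest fold change in PC-3. Its normalised level was 495 and 680 CPM in the controls, 131, 139 and 146 CPM after 12 h and 140, 149 and 159 CPM after 24 h. The lowest control was thus more than 3 times the highest exposed sample (log2 fold change -2.08 ± 0.12 SE after 12 h, adjusted p = 2.95e-08, and -1.97 after 24 h, adjusted p = 1.29e-07). RPL29, a large subunit protein that also binds heparin, was at 1056 and 1361 CPM in the controls, at 454 to 480 CPM after 12 h and at 490 to 560 CPM after 24 h (log2 fold change -1.38 and -1.23). The groups did not overlap for RPL13A or RPL29. After 24 h the 3 lowest log2 fold changes were those of RPL13A, RPL13 (-1.26) and RPL23 (-1.24).

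RPL5 and RPL11, the carriers of the 5S rRNA, moved alike in PC-3. RPL5 was at 1497 and 1977 CPM in the controls, at 760, 796 and 812 CPM after 12 h and at 759, 771 and 792 CPM after 24 h. RPL11 was at 978 and 1375 CPM in the controls, at 530 to 560 CPM after 12 h and at 543 to 624 CPM after 24 h. Both fell, by 1.14 and 1.11 on the log2 scale after 12 h.

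Proteins of the stalk, the arm that recruits elongation factors, had log2 fold changes above the median of -1.07 after 12 h. All 4 of RPLP0, RPLP1, RPLP2 and RPL12 passed the threshold at both times. RPLP1 was at 882 and 1109 CPM in the controls, at 608, 629 and 650 CPM after 12 h and at 579, 625 and 690 CPM after 24 h (log2 fold change -0.66 at both times). RPLP0 and RPLP2 had log2 fold changes of -0.76 each after 12 h and of -0.77 and -0.69 after 24 h, and RPL12, at the base of the stalk, of -0.86 and -1.08. Of 7 proteins lining the exit tunnel or its mouth, 6 fell at each time, from RPL26 (-1.27 after 12 h) and RPL39 (-1.27) through RPL23A (-1.08), RPL4 (-0.88) and RPL19 (-0.85) to RPL35 (-0.72). RPL17 was the exception, with a log2 fold change of -0.26 (adjusted p = 0.175) and only 7.56 and 8.84 CPM in the controls.

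At the weaker end of the PC-3 range were RPSA, RPL17, RPS26, RPS2, RPS27A and RPS10. RPSA, also known as a laminin receptor, was at 817 and 1063 CPM in the controls, at 771, 776 and 831 CPM after 12 h and at 680, 697 and 721 CPM after 24 h (log2 fold change -0.25, adjusted p = 0.0747, and -0.43, adjusted p = 0.00632). A single 12 h sample lay above the lower control, and all 24 h samples lay below both. RPS27A, which is made as a fusion with ubiquitin, was at 454 and 589 CPM in the controls, at 319 to 348 CPM after 12 h and at 329 to 355 CPM after 24 h, and it fell by 0.63 and 0.61 on the log2 scale. RPS26 and RPS2, both of the small subunit, had log2 fold changes of -0.42 (adjusted p = 0.00722) and -0.44 (adjusted p = 0.00742) after 12 h. RPS10 was at 10.4 and 13.5 CPM in the controls and at 7.22 to 7.87 CPM after 12 h (-0.65, adjusted p = 0.00523). RPS6, the substrate of the S6 kinases, fell at both times, with log2 fold changes of -0.996 and -1.03. RPS19, the most often mutated gene in Diamond-Blackfan anemia, had -0.84 and -0.79, the X-linked RPS4X -0.95 and -0.97, RPL22, which also binds a viral RNA, -1.18 and -1.04 and RPL41, the smallest ribosomal protein, -1.27 and -1.05, and all of these passed. Of 18 tested genes that are mutated in Diamond-Blackfan anemia, 16 fell at each time, RPS26 and RPS10 being the others.

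Between 12 h and 24 h the PC-3 levels showed no called change. With the exposed groups set against each other, edgeR's quasi-likelihood test called 0 of 75 genes, against 1.41% of all genes, and 1 of 75 had an unadjusted p under 0.05, against 24.5% of all genes. DESeq2 and limma voom also called 0. The median log2 difference was 0.04. The 12 h and 24 h groups were compared with the same controls, so their decreases are not independent of each other.

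The size of the PC-3 decrease depended on the control. DMSO replicate 3 was above replicate 2 in 75 of 75 genes, and the log2 ratio of replicate 3 to replicate 2 had a median of 0.37. Without replicate 3 the median log2 fold change was -0.85 after 12 h and -0.79 after 24 h, with 67 and 65 genes lower, against 12.9% and 9.07% of all genes, and without replicate 2 it was -1.24 and -1.18, with 73 lower at each time, against 15.5% and 12.2%. In each of the 6 exposed samples all 75 genes lay below the mean of the controls. A trend of fold change on GC content and coding length, fitted over 12675 other genes, had a median of -0.12 at these genes after 12 h and -0.10 after 24 h. The median of the genes minus this trend was -0.93 and -0.89. Across the 75 genes the log2 fold change had a Spearman correlation of -0.01 with GC content after 12 h and of -0.02 after 24 h, over genes that share the same libraries.

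Markers of cell types moved with PDA-66 in PC-3 as well. The 4 epithelial markers summed to 517 to 576 CPM in the controls, 333 to 371 CPM after 12 h and 330.3 to 455 CPM after 24 h, and 2 of 4 fell after 12 h, CDH1 (-2.44) and KRT18 (-1.06), and 3 after 24 h. The 5 fibroblast markers summed to 43.1 to 65.5 CPM, then 10.3 to 14.1 CPM and 16.98 to 22.3 CPM, where COL1A2 fell (-3.33 after 12 h) and was the 1 called of 3 tested. The 5 leukocyte and endothelial markers summed to 116 to 153 CPM, then 76.4 to 82.5 CPM and 74.1 to 88.7 CPM, with CD68 and PECAM1 lower after 12 h and CD68 after 24 h, and CD3E at 0 in the controls. Of the luminal markers named above, ACPP fell (-4.21 after 12 h and -2.45 after 24 h). Their part in the decrease of ribosomal protein mRNAs was not tested.

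**Figure D3:**
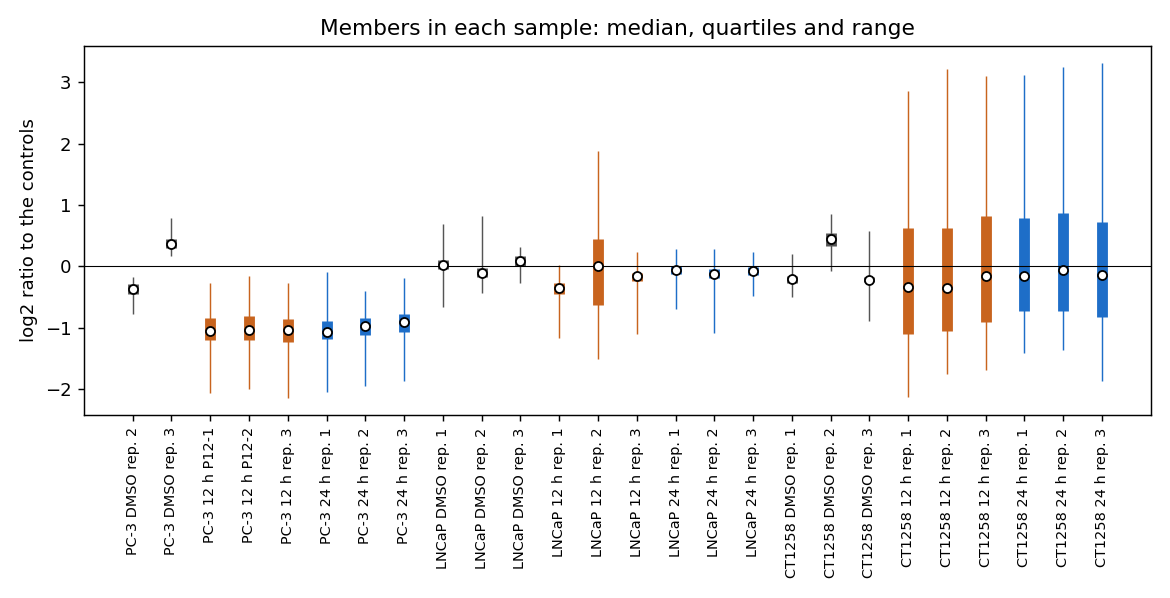
Log2 ratio of each ribosomal protein gene to the controls, for every sample, with the median and the interquartile range over genes (75 in each human line, 42 in CT1258). Exposed samples are set against the mean of all controls of their line and each control against the mean of the other controls, so the 2 kinds of ratio differ in scale. The PC-3 exposed samples have medians of -1.06 to -0.91, the controls of PC-3 lie at -0.37 and 0.37, and LNCaP PDA-66 12 h replicate 2 has a median of 0.00 with a wide range.

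Genes with and without a tract at the start were both lower in PC-3. The 45 tested genes with a tract had a median log2 fold change of -1.09 after 12 h, with 43 of them lower, and the 16 without had a median of -0.97, with 14 lower. The 14 genes without a matched start had a median of -1.04, with 13 lower. RPL13A and RPSA, at the far ends of the PC-3 range, have the same tract letters in the windows printed above, and RPS4X, with no tract, lay within the interquartile range of -1.22 to -0.85. This is a description, and the difference between these sets was not tested.

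Levels per kilobase of coding length differed between ribosomal protein genes by orders of magnitude. In PC-3 controls the median was 1899 CPM per kilobase. RPS24 was at 10995 ± 2244 and RPL41 at 4809 ± 866, and RPL17 at 14.9 ± 1.6, RPS10 at 24.2 ± 4.5 and RPL36A at 42.2 ± 15.9 (SD, n = 2). In LNCaP controls the median was 1782 CPM per kilobase, and RPS18 was highest at 4590 ± 413, followed by RPL41 at 4421 ± 212 and RPS6 at 3708 ± 140. RPS10, RPL17 and RPL36A were again lowest there, at 20.9 ± 6.3, 26.9 ± 2.8 and 51.5 ± 18.8 (SD, n = 3). The coding length of RPL41 is 75 bases, shorter than its mRNA, so its value is overstated. RPL21 had at most 1 count in any sample of either line and was not tested. Ribosomal protein genes have many near-identical processed copies, how reads that fit several places were counted is not given in the sources used here, and the levels of single genes are uncertain for that reason.

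In LNCaP no ribosomal protein gene passed the threshold, and the decrease was small where it was seen. After 12 h 0 of 75 genes passed at an adjusted p under 0.001 in edgeR's quasi-likelihood test, against 0.0076% of all 13156 genes, and 19 of 75 had an unadjusted p under 0.05, against 30% of all genes. DESeq2's Wald test called 2, edgeR's likelihood ratio test 1 and limma voom 4, and the shares of all genes that these called are not given here. At an adjusted p under 0.05, 5 of 75 genes were lower, RPL36A, RPL10A, RPS12 and RPS18 among them, against 4.62% of all genes, and 0 were higher, against 4.52%. After 24 h 0 of 75 passed, against 0% of all genes, 2 had an unadjusted p under 0.05, against 19.8% of all genes, and the other tools called 0. The median log2 fold change was -0.18 after 12 h and -0.09 after 24 h, beside 0.03 and -0.01 over all genes. The 12 h median was -0.08 without PDA-66 12 h replicate 1, and the 24 h median was -0.04 without DMSO replicate 3. Every exposed sample lay below every control in 27 of 75 genes after 12 h and in 27 after 24 h, against 14.6% and 21.6% of all genes. The opposite held for 0 genes after 12 h and for RPSA after 24 h, against 13.5% and 23.1%. Standard errors of 0.11 to 0.52 limited what could be detected in this line.

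LNCaP PDA-66 12 h replicate 2 set the range of the 12 h values. In this sample the log2 ratio to the mean of the controls had a median of 0.00, with quartiles of -0.63 and 0.45, and ranged from -1.52 to 1.88. In replicates 1 and 3 the medians were -0.35 and -0.16, with 74 and 66 of the 75 genes below 0. RPSA was at 1043 to 1137 CPM in the LNCaP controls, at 1093, 4018 and 1173 CPM in 12 h replicates 1, 2 and 3 and at 1152 to 1181 CPM after 24 h. RPS19 was at 458 to 553 CPM in the controls, at 359, 1837 and 423 CPM after 12 h and at 445 to 478 CPM after 24 h. In both genes the single sample replicate 2 was far above all others. These genes and RPL18 had the highest log2 fold changes after 12 h (0.94, 0.75 and 0.63, with no call), and RPL36A (-1.32), RPS18 (-0.73) and RPL29 (-0.69) had the lowest. RPL36A was at only 11.5, 23.0 and 14.6 CPM in the controls. Without 12 h replicate 2 the log2 fold changes of RPSA, RPS19 and RPL18 were 0.05, -0.40 and -0.30, so that RPS19 and RPL18 changed sign, and those of RPL36A, RPS18 and RPL29 were -1.19, -0.52 and -0.43.

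The trend on GC content and length was checked in LNCaP before any shift was read. Over 12037 other genes it accounted for 28.6% of the variance of the log2 ratios in 12 h replicate 2, where the median ratio was -0.66 in the fifth of genes with the lowest GC content and 0.81 in the fifth with the highest. In the other exposed LNCaP samples it accounted for at most 9.08%, and in the controls, each set against the mean of the other controls, for 5.57%, 20.8% and 11.0%. In DMSO replicate 2, the control at 20.8%, the median ratio was 0.23 in the fifth with the lowest GC content and -0.23 in the fifth with the highest. At the ribosomal protein genes the trend of the fitted fold changes had a median of 0.06 after 12 h and of 0.08 after 24 h, and the genes minus the trend had medians of -0.27 and -0.17. Without 12 h replicate 2 the 12 h median was -0.27, 72 of 75 genes were below 0 and 32 were lower and 0 higher at an adjusted p under 0.05, where 15% of all genes were lower and 14.1% higher. At an adjusted p under 0.001 the count was 0, against 1.96% of all genes. The part of GC content in the remaining shift was not tested further.

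After 24 h the LNCaP values lay close to the controls. The lowest log2 fold changes were those of RPL36A (-0.80), RPL10A (-0.29) and RPL13A (-0.28), and the highest those of RPS10 (0.22), RPS26 (0.17) and RPS20 (0.11). RPL36A (11.5, 23.0 and 14.6 CPM) and RPS10 (13.9, 8.22 and 8.87 CPM) were at low levels in the controls. RPL13A was at 493, 510 and 551 CPM in the LNCaP controls, at 409, 527 and 434 CPM after 12 h and at 430, 433 and 416 CPM after 24 h. All its 24 h samples lay below all controls, without passing the threshold (adjusted p = 0.302). RPL5 was at 950 to 1099 CPM in the controls and at 903 to 943 CPM after 24 h, and RPS27A at 352 to 359 CPM and 354 to 362 CPM. Among exit tunnel, stalk and 5S rRNA proteins the 24 h log2 fold changes ran from -0.16 (RPL5) to 0.00 (RPL35). Direct comparison of 24 h with 12 h called 0 of 75 genes, against 0% of all genes, and 6 had an unadjusted p under 0.05, against 6.36%.

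**Figure D4:**
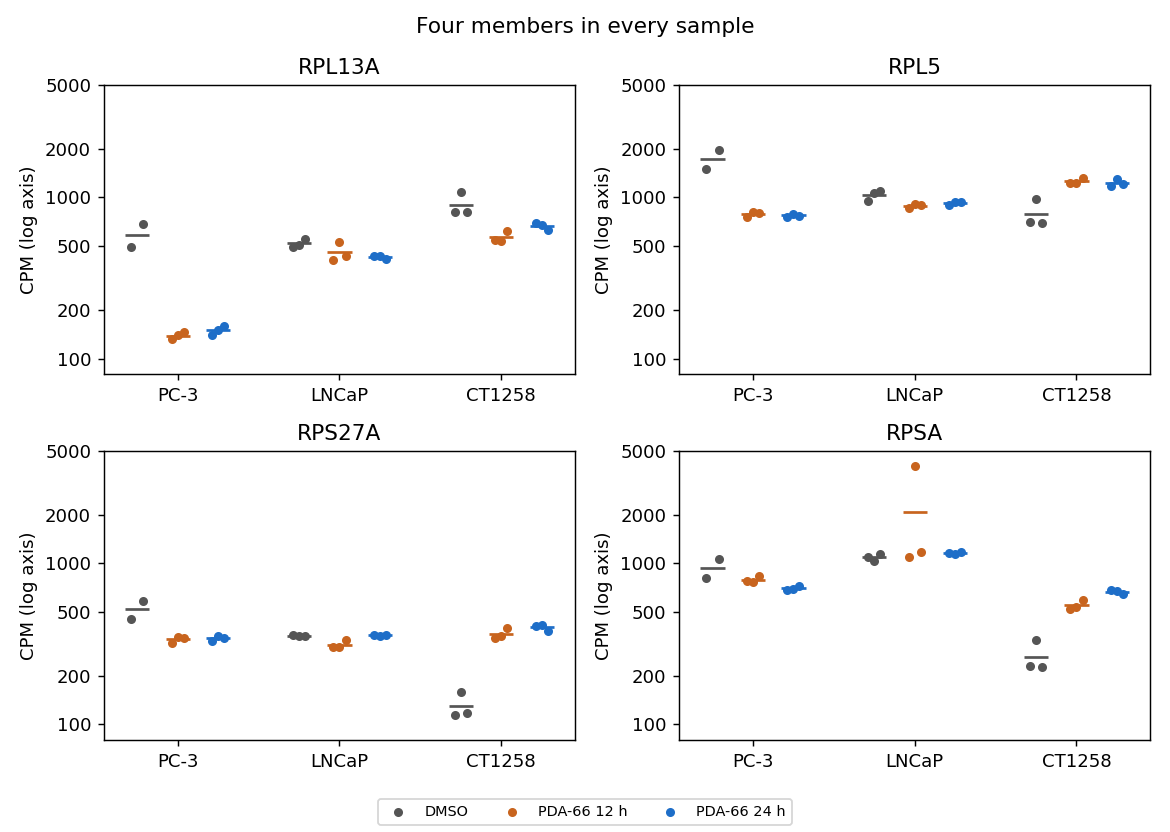
Normalised CPM (log axis) of RPL13A, RPL5, RPS27A and RPSA in each of the 26 samples, by cell line and group. RPL13A drops from 495 and 680 to 131 to 159 in PC-3, RPS27A rises from 115 to 158 up to 346 to 416 in CT1258, and RPSA stands at 4018 in 1 LNCaP 12 h sample.

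In CT1258 ribosomal protein genes went in both directions, unlike in PC-3. Canine reads were mapped with BWA and human reads with STAR, and the part of this in the contrast was not tested. RPL12 and RL12_CANFA, a separate entry of the canine table, differed in sign after 12 h without a call, as given at the end. After 12 h 13 of 42 tested genes rose and 16 fell, against 22.2% of all 9886 genes that rose, 22.1% that fell and 44.3% that changed. After 24 h 14 rose and 15 fell, against 16.6% of all genes that rose, 17.2% that fell and 33.8% that changed. The median log2 fold change was -0.29 after 12 h and -0.11 after 24 h, and its SD over genes after 12 h was 1.23 in CT1258 and 0.28 in PC-3. By subunit, 8 of 25 large subunit genes rose and 7 fell after 12 h, and 5 of 17 small subunit genes rose and 9 fell. The groups did not overlap in 22 genes that were below all controls and 14 that were above after 12 h, against 36.6% and 36.1% of all genes, and in 19 and 17 after 24 h, against 33.2% and 33.1%. RPL30, RPL32, RPL36, RPL38, RPL6, RPLP1, RPS20 and RPS25 were listed with too few counts to be tested.

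Genes that rose in CT1258 included some of low level there and some of high level. RPS24, of the small subunit, was at 0.15, 0.20 and 0.30 CPM in the controls, at 1.86 to 2.64 CPM after 12 h and at 2.10 to 2.85 CPM after 24 h (log2 fold change 3.34 ± 0.36 SE after 12 h, adjusted p = 2.39e-06). With so few counts its fold is imprecise, and the same gene had the highest level per length in PC-3. RPL31, near the tunnel exit, was at 5.41 to 6.16 CPM in the controls and at 35.6 to 50.1 CPM after 12 h (2.89 ± 0.15 SE), and RPL21 at 26.9 to 34.2 CPM and 129 to 137 CPM (2.18 ± 0.10 SE). RPS27A was at 115, 158 and 118 CPM in the controls, at 346, 354 and 396 CPM after 12 h and at 381 to 416 CPM after 24 h. RPSA was at 230, 334 and 229 CPM in the controls, at 519, 538 and 591 CPM after 12 h and at 644 to 684 CPM after 24 h. RPL5 was at 704, 972 and 699 CPM, then at 1223 to 1328 CPM after 12 h and at 1172 to 1305 CPM after 24 h. In all of these genes every exposed sample lay above every control, and the log2 fold changes after 12 h of RPS27A, RPSA and RPL5 were 1.49, 1.06 and 0.67.

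Genes that fell in CT1258 were also well expressed. RPL28, of the large subunit, was at 1263, 1736 and 1212 CPM in the controls, at 404 to 490 CPM after 12 h and at 516 to 604 CPM after 24 h (log2 fold change -1.69 ± 0.13 SE and -1.32). RPL23A was at 212 to 270 CPM in the controls, at 72.1 to 81.9 CPM after 12 h and at 81.1 to 90.1 CPM after 24 h (-1.60 and -1.44). RPS27 was at 517 to 728 CPM in the controls and at 187 to 223 CPM after 12 h (-1.56), with -1.33 after 24 h. In these 3 genes all exposed samples lay below all controls. RPS26 had a log2 fold change of -1.64 after 12 h on 262 counts over all samples and did not pass (adjusted p = 0.0023). RPL13A fell after 12 h (-0.67) and had a log2 fold change of -0.44 after 24 h (adjusted p = 0.00382). Of the exit tunnel proteins, RPL23A and RPL26 (-0.86) fell after 12 h and RPL35 (-0.55) and RPL4 (0.06) did not pass.

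In CT1258 the fold change moved with GC content. Taking GC content and coding length from the human gene of the same symbol, the trend accounted for 37.6% of the variance of the log2 fold changes over 9159 other genes after 12 h and for 39.6% after 24 h. The median of other genes was 0.62 in the fifth with the lowest GC content and -0.57 in the fifth with the highest after 12 h. Across the 42 ribosomal protein genes the Spearman correlation of the log2 fold change with GC content was -0.57 after 12 h and -0.51 after 24 h, over genes that share the same libraries. With this trend removed, 12 genes rose and 17 fell after 12 h and 13 rose and 12 fell after 24 h, with medians of -0.19 and -0.04, where 17.4% and 12.8% of all genes rose and 19.3% and 14% fell. With the counts of the controls thinned to the depth of the PDA-66 samples, 13 genes rose and 18 fell after 12 h and 15 rose and 16 fell after 24 h, where 22.3% and 16.4% of all genes rose and 21.6% and 17.1% fell. The fibroblast marker COL1A2 fell in CT1258 too (-1.85 after 12 h and -2.81 after 24 h), beside LUM at 0.42 (adjusted p = 0.0026) and 0.35 (adjusted p = 0.00941), and the part of these in the CT1258 values was not tested. Canine GC content was not analysed here, and its part in the CT1258 values was not tested beyond this.

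**Figure D5:**
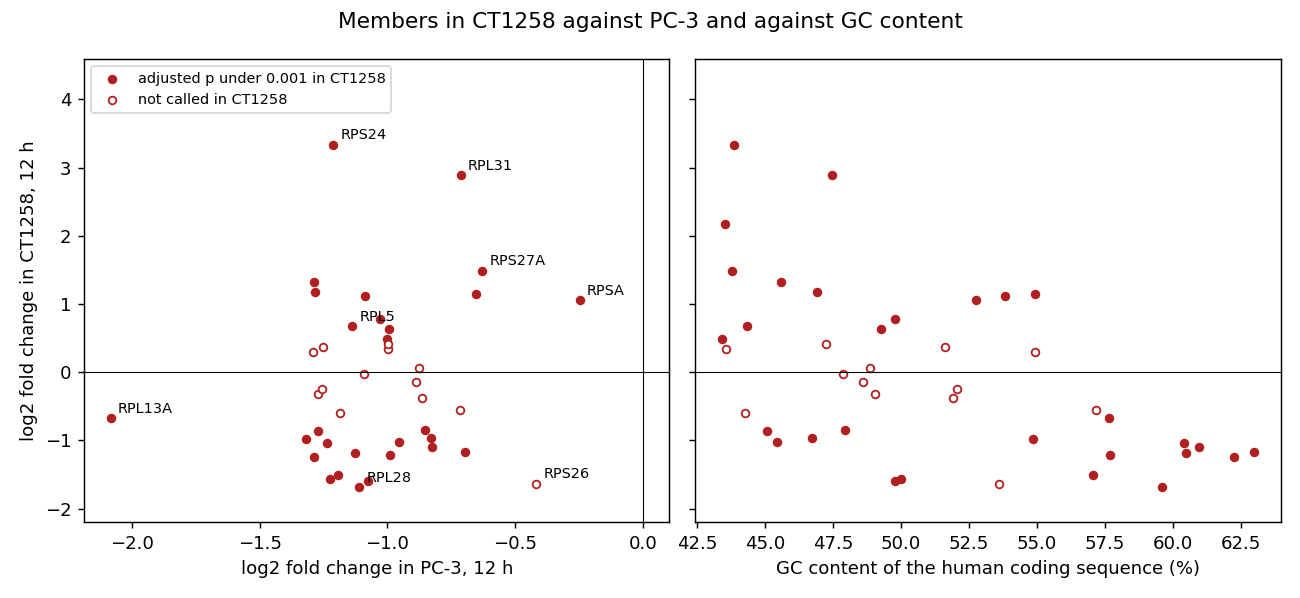
Left, log2 fold change after 12 h of the 41 ribosomal protein genes tested in both lines, in CT1258 (vertical) against PC-3 (horizontal). Right, log2 fold change after 12 h in CT1258 against the GC content (percent) of the human coding sequence of the same symbol, for 42 genes. The left panel shows no common order (Spearman 0.07) and the right panel falls towards high GC content (Spearman -0.57).

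CT1258 DMSO replicate 2 was above the mean of the other controls in 41 of 42 genes, by a median of 0.44 on the log2 scale. Without it 17 genes rose and 18 fell after 12 h, where 28.1% of all genes rose and 27.9% fell, and 18 rose and 16 fell after 24 h, where 23.1% rose and 23.5% fell. The median log2 fold change without it was -0.18 after 12 h and -0.01 after 24 h. The 24 h median was -0.17 without DMSO replicate 1 and -0.18 without DMSO replicate 3. Between 12 h and 24 h 0 of 42 genes were called in CT1258 by edgeR's quasi-likelihood test, against 2.13% of all genes, and 15 had an unadjusted p under 0.05, against 32.5% of all genes, with a median log2 difference of 0.19. DESeq2 also called 0 and limma voom called 19. The share of all genes that limma voom called is not given here, so its count is no result about these genes. Without DMSO replicate 2 edgeR's quasi-likelihood test called 5, all higher after 24 h, against 6.27% of all genes. The levels of the 41 genes in CT1258 controls had a Spearman correlation of 0.43 with their levels in PC-3 controls, across genes and across 2 tables counted in different ways.

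The difference in response between lines was tested itself, in 1 fit of all 26 samples over 11736 shared genes, 50 of them ribosomal protein genes, at an adjusted p under 0.05. The response in PC-3 was lower than in LNCaP in 38 genes after 12 h and in 37 after 24 h and higher in 0, against 9.76% and 3.87% of all genes that were lower and 19.6% and 9.7% that differed. The largest difference was that of RPL13A after 12 h (-1.86 on the log2 scale). Without PC-3 DMSO replicate 3 these counts were 19 and 16, against 6.38% and 2.44% of all genes, and at an adjusted p under 0.001 they were 3 and 3, against 1.6% and 0.443% of all genes. Across 75 genes the log2 fold changes of the lines had a Spearman correlation of 0.42 at each time, over genes that share length and base composition.

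Comparisons with CT1258 rest on the 41 genes with enough counts in both lines. Among these the PC-3 response was lower than that of CT1258 in 23 genes and higher in 1 after 12 h and lower in 23 after 24 h. Of all genes, 15.1% and 10.5% were lower, 15% and 10.8% higher and 30.1% and 21.2% different in either direction. For 10 genes that fell in PC-3 and rose in CT1258 after 12 h, RPL5, RPL7, RPL14, RPL27, RPL27A, RPL31, RPL34, RPS15A, RPS24 and RPS27A, the difference was -4.57 to -1.50. After 24 h this held for 11 genes, with RPL3 and RPL10A added and RPL7 no longer counted. The share of all genes called in opposite directions is not given here. Whether these counts are particular to ribosomal protein genes therefore cannot be told. RPL31 is an example, at 287 and 393 CPM in PC-3 controls and 200 to 213 CPM after 12 h, beside a rise from 5.41 to 6.16 CPM up to 35.6 to 50.1 CPM in CT1258. LNCaP minus CT1258 was higher in 14 genes and lower in 13 after 12 h and higher in 12 and lower in 15 after 24 h, against 40.2% and 21.1% of all genes that differed (20.6% and 9.98% higher, 19.5% and 11.1% lower).

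Of 16 other listed TOP mRNAs of translation, 12 fell in PC-3 after 12 h, against 14.6% of all genes, and 13 after 24 h, against 10.5%, with 0 rising and medians of -0.81 and -0.76. TPT1, encoding the translationally controlled tumor protein, was lowest (-1.54 and -1.40), followed after 12 h by the initiation factor gene EIF4B (-1.44), and the elongation factor genes EEF1A1 (-1.04) and EEF2 (-0.97) fell too. NPM1, a nucleolar chaperone, was at the other end and did not pass, with log2 fold changes of 0.04 and -0.07. In LNCaP 0 of the 16 passed at either time, with medians of -0.30 and -0.23. In CT1258 2 of 12 tested rose and 6 fell after 12 h and 3 rose and 5 fell after 24 h, against 22.2% and 22.1% of all genes after 12 h and 16.6% and 17.2% after 24 h, from EIF3G (-1.22 after 12 h) to NPM1 (2.24).

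Further lists are given beside these for PC-3, where 14.6% of all genes fell and 13% rose after 12 h and 10.5% fell and 8.88% rose after 24 h. Of 8 host genes of small nucleolar RNAs, whose transcripts also begin with TOP tracts in known cases, 6 fell at each time, with GAS5 lowest (-1.82 and -1.79), and in LNCaP 0 passed, GAS5 having -1.53 after 12 h (adjusted p = 0.0104). Among further cytosolic ribosome components, GNB2L1 (the scaffold protein RACK1, -0.88) fell after 12 h, and FAU had -0.45 (adjusted p = 0.00373). Of 76 genes for mitochondrial ribosomal proteins, which serve the separate ribosome of mitochondria, 3 rose and 4 fell after 12 h and 2 rose and 1 fell after 24 h, with medians of 0.03 and 0.00, from MRPL54 (-0.97) to MRPL39 (0.94) after 12 h. Among 16 genes of mTORC1 and its TOP regulators, 1 fell after 12 h, the mTOR inhibitor gene DEPTOR (-1.75), and 0 changed after 24 h, while MTOR had a log2 fold change of 0.63 (adjusted p = 0.00574).

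In the other lines the counts were as follows, and the difference between lines was not tested for these lists. In LNCaP 0 of 75 tested mitochondrial ribosomal protein genes passed, with medians of 0.32 and 0.27, and 0 of the 16 mTORC1 genes passed. In CT1258, where 22.2% of all genes rose and 22.1% fell after 12 h and 16.6% rose and 17.2% fell after 24 h, 6 of 57 mitochondrial ribosomal protein genes rose and 16 fell after 12 h, with a median of -0.26, and 3 rose and 15 fell after 24 h. Of 14 mTORC1 genes in CT1258 1 rose and 5 fell after 12 h, with EIF4EBP1, a translation repressor, lowest (-1.90). All lists were chosen with earlier results of these data known, and no set test was made.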

How the data were processed

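Counts per gene were deposited for 26 samples of 3 cell lines. The authors sequenced polyA-enriched RNA, mapped human reads with STAR 2.3.1s to hg19 and canine reads with BWA to CanFam3.1, and counted them on annotated genes. Use of strand and of reads with several matches is not given in the sources used here, and edgeR 3.14.0 is named in the submitters' processing notes. In 1 PC-3 column the deposited counts carry other characters, trailing separators, that were removed. Groups followed the sample labels. Each line was fitted alone with edgeR 4.0.16 (R 4.3.3): TMM normalisation, edgeR's filter on low counts (filterByExpr), the quasi-likelihood test on groups, and Benjamini-Hochberg adjustment over all genes tested, with a threshold of 0.001. Differences between lines were tested as interactions at 0.05. CPM values are TMM-normalised. GC content and coding length were those of the canonical transcript of each human gene in the GENCODE annotation. Their trend was fitted as splines with 4 degrees of freedom. The fits were tested on simulated data. DESeq2 1.42.0 and limma 3.58.1 served as alternatives, beside other scalings, filters, 0.05 as threshold, 2-group fits, a replicate block, GC correction and leaving out each sample. The GC correction of CT1258 was added after seeing the data.

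Named genes were the 3 at either end of the fold changes in each comparison, those of the stalk, 5S and exit tunnel lists, RPSA, RPS6, RPS19, RPS27A, RPS4X, RPL22 and RPL41, the 3 at either end of the levels per length, genes called in opposite directions, and the ends of the other lists. Other genes named with values were chosen after their values were seen. A few genes that this rule or the lists select are not reported here. Genes and lists were chosen with earlier results of these data known. Samples were not treated as paired by replicate number. The correlations of same-numbered samples were -0.11 to 0.07 in PC-3, -0.41 to 0.17 in LNCaP and -0.18 to 0.15 in CT1258. With so few samples per group, these values cannot show whether the numbers pair the samples. Intervals and errors cover these samples only.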

Additional observations from a re-analysis of the deposited data

Results flagged for a closer look

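The counts of ribosomal protein genes whose response differed between lines, tested as an interaction in edgeR's quasi-likelihood test at an adjusted p under 0.05, were singled out because the difference itself passed. They were 38 after 12 h and 37 after 24 h for PC-3 minus LNCaP, 24 and 24 for PC-3 minus CT1258, and 27 and 27 for LNCaP minus CT1258, of 50 in the shared table. Of all 11736 shared genes, 19.6% and 9.7%, 30.1% and 21.2%, and 40.2% and 21.1% differed, in the same order. Of the 50 ribosomal protein genes, 49 had enough counts in both lines for PC-3 and LNCaP and 41 for each pair with CT1258. The 24 h count for PC-3 minus CT1258 includes RPL6, with 3 counts over all CT1258 samples, and is 23 over the 41 genes. In 10 genes the calls of PC-3 and CT1258 after 12 h went in opposite directions, and the share of all genes with opposite calls is not given here. The log2 difference, PC-3 minus CT1258, was -4.57 for RPS24, -3.62 for RPL31, -2.62 for RPL34, -2.48 for RPS15A, -2.23 for RPL27A, -2.14 for RPS27A, -1.83 for RPL14, -1.83 for RPL5, -1.64 for RPL27 and -1.50 for RPL7. RPS24 had 123 counts over all CT1258 samples.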

How the results depend on the processing

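No called value changed sign. For named genes, 48 uncalled values in LNCaP and 4 in CT1258 moved across 0 or by more than the replicate spread, 79 calls in PC-3 and 38 in CT1258 were lost under an alternative, and 6, 59 and 7 were gained in PC-3, CT1258 and LNCaP. Of 489 alternative values for the main results 471 kept their direction and their side of the threshold, 5 moved, 8 gained calls and 5 lost calls. The median log2 fold change of PC-3 after 12 h was -0.95 with the GC and length correction. Leaving out samples in turn gave medians of -1.24 to -0.85 after 12 h and -1.18 to -0.79 after 24 h in PC-3, with 62 to 73 and 60 to 73 genes called, of -0.27 to -0.08 and -0.13 to -0.04 in LNCaP and of -0.35 to -0.18 and -0.18 to -0.01 in CT1258. In LNCaP after 12 h DESeq2's Wald test called 2 genes, edgeR's likelihood ratio test 1, limma voom 4 and a threshold of 0.05 called 5. Between 24 h and 12 h in CT1258 limma voom called 19, a fit of only the 2 groups 3, a threshold of 0.05 called 2, and leaving out samples gave 0 to 5. Differences between PC-3 and LNCaP were counted in 19 to 43 genes after 12 h and 16 to 48 after 24 h on leaving out samples, and in 3 and 3 at 0.001, and those between LNCaP and CT1258 after 24 h in 8 at 0.001. The causes were not tested. With the replicate block, which pairs samples by number only, 51 and 57 genes were called in PC-3 after 12 h and 24 h, 0 and 0 in LNCaP and 31 and 30 in CT1258. For the replicate block, the fit of only the 2 groups and the alternative tests, the share of all genes called is not given here. Whether their counts are particular to these genes therefore cannot be told. No scaling moved the median of all genes by over 0.1. The 2 PC-3 controls and, in LNCaP, the spread between replicates (biological coefficient of variation 0.240, against 0.0971 in PC-3 and 0.10 in CT1258) limit what these samples can show.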

Other observations

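Paralogs of ribosomal proteins, which differ in sequence from the main copies and are not among the 77 genes, were counted apart. In PC-3 1 of 6 tested fell after 12 h, against 14.6% of all genes, RPL36AL (-0.56), beside RPL22L1 (-0.83, adjusted p = 0.0023), RPS27L (-0.72, adjusted p = 0.00151) and RPL26L1 (0.26, adjusted p = 0.0502), and 2 fell after 24 h, against 10.5%, with RPS27L lowest (-0.90). In LNCaP 0 of 6 passed. In CT1258 RPL39L, mainly known from testis, rose from 0.13 CPM in the controls to 4.81 CPM after 12 h and 5.09 CPM after 24 h (log2 fold change 5.07 and 5.16), and RPL22L1 rose after 12 h (1.03).

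The canine table also lists 10 ribosomal proteins under protein entry names, outside the naming rule. Of these 4 rose and 2 fell after 12 h and 5 rose and 2 fell after 24 h, against 22.2% and 22.1% of all genes after 12 h and 16.6% and 17.2% after 24 h, from RS3_CANFA (-0.95) to RL40_CANFA (1.61) after 12 h. RL12_CANFA had a log2 fold change of 0.27 (adjusted p = 0.0239) and RPL12, listed separately in the same table, of -0.39 (adjusted p = 0.0031). Of 12 tested human entries with pseudogene names, of which RPS19BP1 is a binding protein gene, 3 fell and 0 rose in PC-3 at each time, against 14.6% and 10.5% of all genes that fell.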
